A study of Aethionema arabicum with 12 samples.

Results

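The tetratricopeptide repeat (TPR)-like genes described here are 274 gene models of *Aethionema arabicum* (Brassicaceae, the family of Arabidopsis), out of 24932 in the deposited table. They were chosen by annotation and by depth: the short description of the paired Arabidopsis gene names a tetratricopeptide and not a pentatricopeptide, and the counts of the 12 libraries sum to 50 or more. The description matches 303 models, of which 29 fell under that sum and 9 of those had no count. The members make up 1.71% of the models with 50 or more counts, and 265 members passed the low-count filter, which left 15301 genes for testing.

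The TPR is a short helix-turn-helix repeat that stacks into a curved scaffold on which other proteins dock. TPR proteins serve as chaperone adaptors that read the tails of HSP70 and HSP90, as subunits of the anaphase-promoting complex, as organelle import and fission factors and as sugar transferases acting on other proteins. Pentatricopeptide repeat (PPR) proteins share the helical fold but bind RNA, and in plants most of them process, splice or edit transcripts of mitochondria and chloroplasts.

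The label holds for only some of the members. The long descriptions of 176 members name a PPR protein or domain although the short description reads TPR-like, and a further 2, paired with CRR2 and CRR21, are known PPR proteins of Arabidopsis. These 178 are called PPR-annotated members below and the remaining 96 other TPR-like members. An InterPro TPR domain is recorded for 69 of the 96. The PPR-annotated members had a median length of 2164 bp and a median sum of 463.5 counts, against 3289 bp and 1405 counts for the other TPR-like members. Of the 89 members with a recorded location, 37 are placed in the chloroplast and 25 in the mitochondrion.

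RNA was measured in imbibed wild-type (WT) seeds of the Cyprus accession, all held at 14 °C on moist filter paper. Light was white, at 100 µmol m-2 s-1, with no other treatment or genotype among the libraries used. The groups were 23 h (1 d), 7 d and 14 d of light, and 7 d of light followed by 7 d of darkness, called the dark week here. Each of the 4 groups had 3 libraries of polyadenylated RNA from intact seeds that had not germinated. The series addresses secondary dormancy, the renewed block to germination that light sets up in these seeds. Whether the 3 libraries of a group derive from separate batches of seed is not stated. The p-values therefore reflect library-to-library spread, which may be technical.

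Library totals were 3387609 to 3996148 counts after 1 d, 1596668 to 2689668 after 7 d, 916523 to 2448092 after 14 d and 1299536 to 1900418 after the dark week. The 3 libraries of 1 d thus hold 40.7% of all counts, and the minimum sum favours models with counts there: 33 tested members, 27 of them PPR-annotated, have under 50 counts in the 9 later libraries together. A fall from 1 d in these members is therefore favoured by the rule that chose them. A pair of libraries stood apart from their groups. By a chi-square comparison of counts, 7 d replicate 3 differed from 7 d replicates 1 and 2 by 6.21 and 5.90 per degree of freedom, but from 14 d replicates 1 and 3 by 2.36 and 1.45. Likewise 14 d replicate 2 differed from 14 d replicates 1 and 3 by 8.24 and 6.76, but from 7 d replicates 1 and 2 by 1.89 and 2.16. Among the other libraries, those of the same group differed by 1.14 to 3.74. Among the 51 members over 4000 bp, the median level of 7 d replicate 3 lay 0.47 and 0.38 (log2) under 7 d replicates 1 and 2, and that of 14 d replicate 2 lay 0.51 and 0.48 over 14 d replicates 1 and 3. Results of 7 d and 14 d are therefore given with and without these libraries where it matters; the cause was not tested.

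The members nearest the minimum sum show what it decides. Just inside it were models paired with AT1G50990 (a BSK kinase, 52 counts), AT5G43120 (57 counts) and AT4G39620 (63 counts). Just outside it were 3 models with 16, 17 and 35 counts, all paired with AT4G28010. Of the members, 9 with sums of 52 to 98 counts had too few counts per library to be tested, 6 of them PPR-annotated.

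The first comparison asked how the members changed between the first day and the first week of light. More members fell than rose: 133 of 265 (50.2%) were called lower after 7 d than after 1 d and 39 (14.7%) higher, at an adjusted edgeR p under 0.05. Among all tested genes 29.7% were called lower and 30.7% higher. The classes are given separately. Of the 172 tested PPR-annotated members 105 (61.0%) fell and 22 (12.8%) rose, with a median log2 fold change of -0.87. Of the 93 other TPR-like members 28 (30.1%) fell and 17 (18.3%) rose, with a median of -0.05, while the median of all tested genes was 0.02. In these bulk samples, fewer cells of a type and less RNA per cell cannot be told apart.

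Read coverage was matched, since PPR-annotated members had low coverage and genes of low coverage fell more often. Reads per base (the 12-library sum over gene length) had a median of 0.213 in the PPR-annotated and 0.424 in the other TPR-like members. Among the 11121 genes within the 10th to 90th percentile of the tested members' reads per base, 32.4% fell and 27.3% rose. Weighting the tested genes outside the set by the PPR-annotated members' spread over 10 coverage classes gave 35.0% lower, 25.5% higher and a median of -0.16. The same weighting for the other TPR-like members gave 30.1% lower and 30.1% higher.

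**Figure D1:**
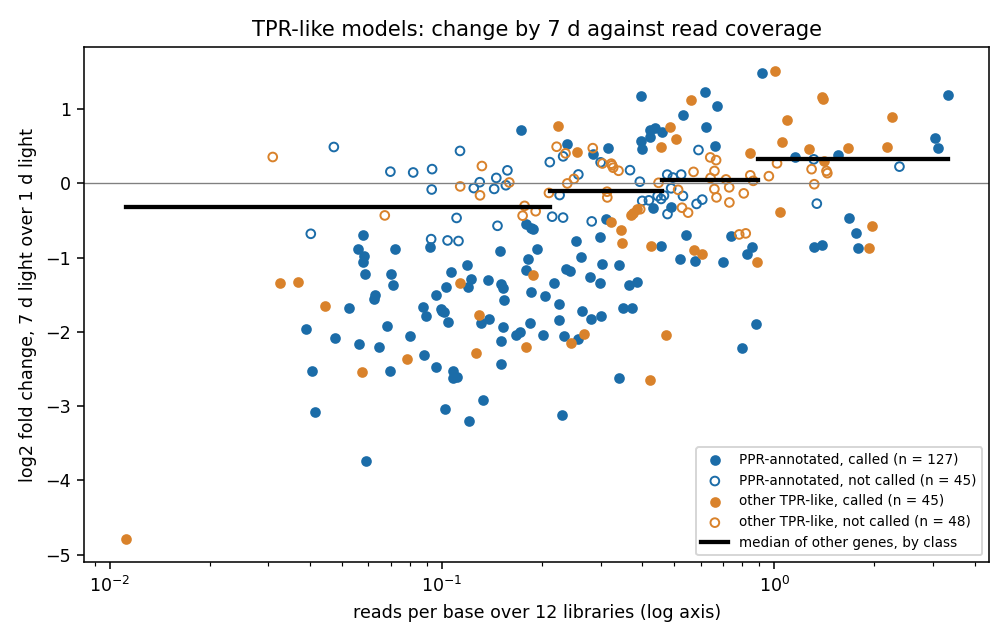
Log2 fold change of each tested member, 7 d over 1 d of light (vertical axis), against its reads per base over the 12 libraries (horizontal log axis). Members whose fall the minimum sum favoured, with under 50 counts in the 9 later libraries, are included. Filled points passed an adjusted edgeR p of 0.05, open points did not, and black bars are the medians of all other tested genes in each of the 4 coverage classes. Most points of both kinds lie under the bar in the lowest class, where the medians are -1.39 for PPR-annotated (blue) and -1.23 for other TPR-like members (orange), against -0.32 for other genes; the lowest orange point has 1 count after 7 d.

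PPR-annotated members fell more often than other genes in each of 4 equal-sized classes of coverage. The counts include the 33 tested members, 27 of them PPR-annotated, with under 50 counts in the 9 later libraries. The minimum sum favoured a fall in these, and the classes were not counted without them. In the lowest class 64 of 84 PPR-annotated members (76.2%) fell, against 40.6% of the genes outside the set. In the second class it was 26 of 49 (53.1%) against 34.6%, in the third 10 of 25 (40.0%) against 27.3%, and in the highest 5 of 14 (35.7%) against 15.3%. Rising PPR-annotated members were scarce at low coverage, 1 of 84 (1.19%) against 20.6%, and near the other genes in the highest class, 6 of 14 (42.9%) against 46.8%. The other TPR-like members fell in 11 of 21 (52.4%) in the lowest class but in 4 of 26 (15.4%) and 3 of 19 (15.8%) in the third and the highest, where 27.3% and 15.3% of other genes fell. They rose in 0 of 21 in the lowest class, in 3 of 27 (11.1%) in the second and in 4 of 26 (15.4%) in the third, against 20.6%, 24.3% and 31.8% of other genes. In the highest class 10 of 19 (52.6%) of them rose, against 46.8%.

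**Figure D2:**
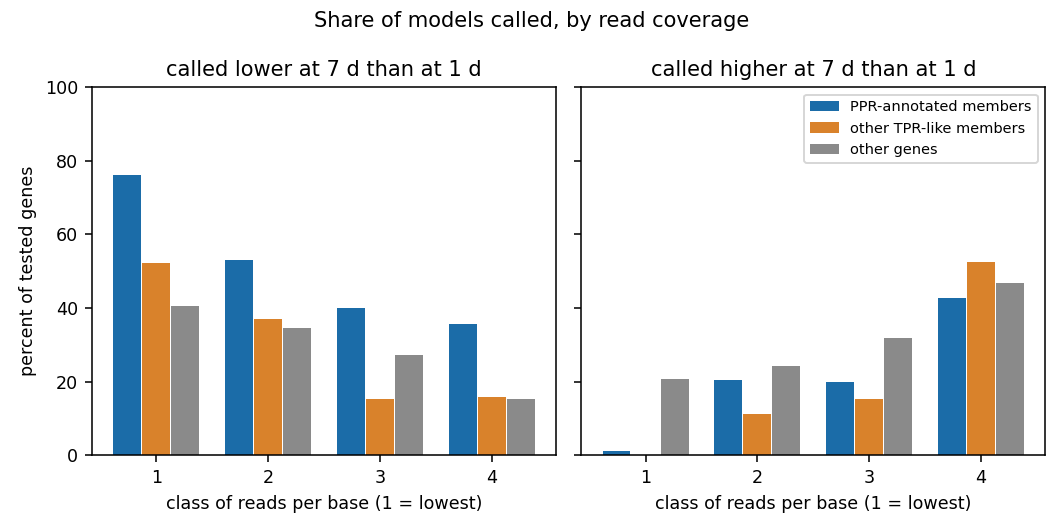
Percent of tested genes called lower (left) and higher (right) after 7 d than after 1 d, in the 4 classes of reads per base (1 = lowest). Bars stand for PPR-annotated members (84, 49, 25 and 14 genes), other TPR-like members (21, 27, 26 and 19 genes) and all other tested genes. Members whose fall the minimum sum favoured, with under 50 counts in the 9 later libraries, are included. The blue bars for genes called lower exceed the grey ones in every class, 76.2% against 40.6% in the lowest.

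Without the 2 libraries that stand apart, a choice made after seeing the data, 106 of 172 PPR-annotated members fell and 27 rose, while 34% of all genes fell and 33% rose. With trends on length and coverage removed from each library, 93 PPR-annotated members fell and 22 rose, with a median of -0.67.

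The same contrast shows in the libraries. PPR-annotated members together held 6278, 6087 and 6459.6 CPM (each model's count relative to the library total, with totals scaled by TMM) after 1 d, 5323, 5156 and 4853 CPM after 7 d, 5067, 5311 and 4883 CPM after 14 d, and 4858, 4833 and 5006 CPM after the dark week. Every 1 d library lay above the 9 later ones, which overlap. The other TPR-like members held 7194.62 to 7356.22 CPM after 1 d, 6794 to 7696 after 7 d, 6732 to 7751 after 14 d and 7356.36 to 8084 after the dark week. The ranges of 7 d and 14 d overlap with each other and with the other groups, while the dark-week libraries all lie above those of 1 d, the nearest by less than 1 CPM. The highest group mean was that of 1 d in 124 of 172 PPR-annotated members (72.1%) and in 47 of 93 others (50.5%), against 41.8% of all tested genes. The minimum sum favours members highest at 1 d. Of the 172, 27 have under 50 counts in the 9 later libraries. The dark week gave the highest mean in 29 of the 93 others (31.2%) and in 18 of the 172 PPR-annotated members (10.5%), against 27.2% of all tested genes.

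**Figure D3:**
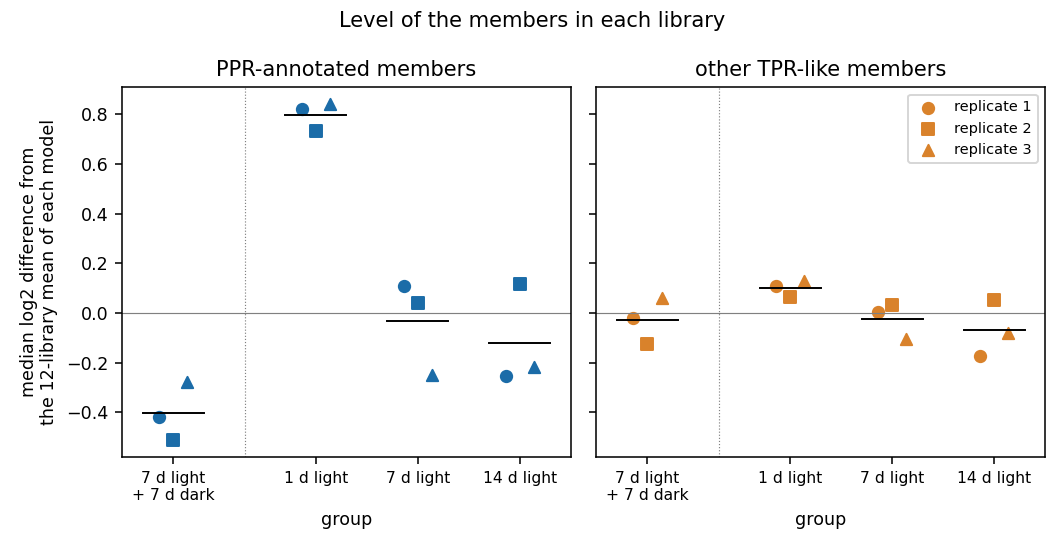
Median over members of the log2 difference between a library and the member's 12-library mean, for PPR-annotated (left) and other TPR-like members (right). Points are libraries, horizontal lines group means; the dark week stands left of the dotted line and the light series runs 1 d, 7 d, 14 d. PPR-annotated members sit at 0.73 to 0.84 in the 1 d libraries and at 0.12 or lower in all others, with 7 d replicate 3 (-0.25) among the 14 d values and 14 d replicate 2 (0.12) among the 7 d values.

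Among the called members with a mean of 5 CPM or more and no overlap between groups, 7 of the 8 largest falls were in PPR-annotated models, most of them of little known function. The model Aa31LG10G5180, paired with the mitochondrial AT4G02750, had 2.95, 2.65 and 1.27 CPM after 7 d, against 22.1, 23.8 and 22.7 CPM after 1 d. Its log2 fold change was -3.20 ± 0.30 (SE, edgeR adjusted p = 2.1e-06). Aa31LG5G22220, paired with AT2G36980, had 5.16, 2.65 and 1.91 CPM after 7 d, against 29.7, 28.9 and 33.6 CPM after 1 d, a change of -3.12 ± 0.25. Models paired with AT3G26782 (-2.92 ± 0.29), AT5G40405 (-2.63 ± 0.18), AT3G15130 (-2.61 ± 0.25) and AT4G35130 (-2.53 ± 0.26) fell as well. All 6 kept their calls in each of the 21 alternatives run. The AT3G15130 model had 194 counts after 1 d, against 17, 14 and 3 after 7 d, 14 d and the dark week. It met the minimum sum only through its 1 d counts, so the rule favoured its fall.

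Members on a chosen list of PPR proteins of known function in Arabidopsis fell in 10 of 14 cases and rose in 2. Among all tested genes 29.7% fell and 30.7% rose. The list is not complete: it lacks EMB2745, which rose, and SLO3, which fell, both given below. The chloroplast editing factor OTP82 has a pair of models: Aa31LG11G9860 had 2.95, 1.76 and 2.54 CPM after 7 d, against 12.8, 14.2 and 18.5 CPM after 1 d, and Aa31LG4G13790 had 6.27, 5.73 and 3.18 CPM after 7 d, against 21.4, 22.1 and 26.3 CPM after 1 d. Both were lower in every 7 d library than in any 1 d library, with changes of -2.62 ± 0.28 and -2.12 ± 0.29. SLG1, a mitochondrial editing factor, had 1.11, 0.441 and 0.636 CPM after 7 d, against 11.6, 7.65 and 13.0 CPM after 1 d, a change of -3.74 ± 0.47 that rests on few counts at 7 d. VAC1, a chloroplast editing factor needed for normal plastids, had 23.2, 19.8 and 11.4 CPM after 7 d, against 56.8, 59.3 and 65.5 CPM after 1 d, a change of -1.68 ± 0.24 (edgeR adjusted p = 6.2e-05).

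Further falls among them concerned factors for transcripts of the chloroplast NDH complex and other organelle RNAs. CRR2 changed by -2.31 ± 0.34, OTP84 by -2.17 ± 0.32, CRR28 by -1.88 ± 0.32 and OTP86 by -1.57 ± 0.30 (log2 ± SE). EMB2261, an embryo-essential gene, changed by -1.74 ± 0.26 and PGN, a mitochondrial protein, by -1.69 ± 0.32. The risers were Aa31LG4G15920, paired with the chloroplast editing factor OTP81, with 41.7, 38.4 and 37.5 CPM after 7 d, against 26.2, 21.6 and 23.8 CPM after 1 d and a change of 0.72 ± 0.14, and CLB19, an editing factor of chloroplast rpoA and clpP. CLB19 had 55.3, 48.1 and 32.4 CPM after 7 d, against 33.4, 27.9 and 34.6 CPM after 1 d; its groups overlap and its call (edgeR adjusted p = 0.0296) was lost in 8 alternatives, 5 of them leaving out a 1 d or 7 d library, with adjusted p from 0.0003 to 0.215. Of the PPR genes of the same list that lie outside the description rule, 18 of 23 were lower and 1 higher. The shares of all tested genes were 29.7% lower and 30.7% higher.

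The members that rose most came from both classes. KLCR2, a kinesin light chain-related protein that ties cortical microtubules to the plasma membrane, had 139, 153 and 139 CPM after 7 d, against 47.3, 45.1 and 57.9 CPM after 1 d. Its groups were far apart, with a log2 fold change of 1.52 ± 0.11 (edgeR adjusted p = 3.2e-07). EMB2745, an embryo-essential PPR protein paired with Aa31LG9G16400, had 136, 140.3 and 176 CPM after 7 d, against 53.3, 56.5 and 51.5 CPM after 1 d, a change of 1.48 ± 0.18. Aa31LG4G13870, the longest member at 13201 bp and paired with an Oxa-type insertase of the mitochondrial inner membrane, had 328, 315 and 336 CPM after 7 d, against 150.4, 153 and 144 CPM after 1 d. It varied little between replicates and changed by 1.13 ± 0.09.

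Further risers were PPR-annotated models paired with AT1G11900 (1.23 ± 0.18), AT3G14330 (1.19 ± 0.29) and AT2G01390 (1.17 ± 0.18, placed in the chloroplast). TPR proteins paired with AT1G56090 (1.17 ± 0.16) and the thylakoid AT3G26580 (1.13 ± 0.18) rose too. For AT3G14330 the values were 99.2, 107 and 169.8 CPM after 7 d, against 54.6, 58.2 and 50.8 CPM after 1 d, so that 7 d replicate 3 is the highest. Without both libraries that stand apart its change was 0.89 (edgeR adjusted p = 6.2e-05), and over all alternatives its adjusted p ran from 6.2e-05 to 0.0198.

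The chaperone adaptors, co-chaperones that dock on HSP70 and HSP90, rose in 3 of 7 tested cases and fell in none, with a median of 0.15. Of all tested genes 30.7% rose and 29.7% fell in this comparison, the background for the count of every family given for it, and no family's count was tested against it. TPR2 had 142, 149 and 159 CPM after 7 d, against 110.4, 109 and 103 CPM after 1 d, a change of 0.48 ± 0.13. TPR8 had 124, 120.0 and 125 CPM after 7 d, against 93.8, 89.3 and 85.4 CPM after 1 d, a change of 0.46 ± 0.11. The replicates do not overlap in either gene, but both calls were lost with trends on length and coverage removed, at adjusted p of 0.0734 and 0.106 (ranges 0.00101 to 0.115 and 0.00116 to 0.154). TPR5 changed by 0.41 ± 0.12 and lost its call without 1 d replicate 1 (0.0801) or 7 d replicate 3 (0.0781), with a range of 0.00588 to 0.0801. OEP61, TPR3, TPR4 and TRP1 were not called. Adaptors of the list outside the rule were called higher in 3 and lower in 9 of 19, and their HSP90 and HSP70 partners higher in 3 and lower in 6 of 11.

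Outside the PPR class, the sulphur deficiency-induced genes fell in 2 of 3 tested cases. SDI1, which in Arabidopsis is induced by sulphur starvation and restrains glucosinolate synthesis, had 11.4, 14.1 and 17.8 CPM after 7 d, against 91.0, 94.2 and 80.3 CPM after 1 d. Every 1 d library lay far above every 7 d library, and the log2 fold change was -2.65 ± 0.19 (edgeR adjusted p = 3.1e-07). Its relative SDI2 had 10.7, 8.82 and 11.4 CPM after 7 d, against 42.8, 51.3 and 42.8 CPM after 1 d, a change of -2.15 ± 0.28 (edgeR adjusted p = 3.3e-05). Neither call was lost in any of 21 alternatives. MS5, a meiosis gene of the same family, was not called.

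**Figure D4:**
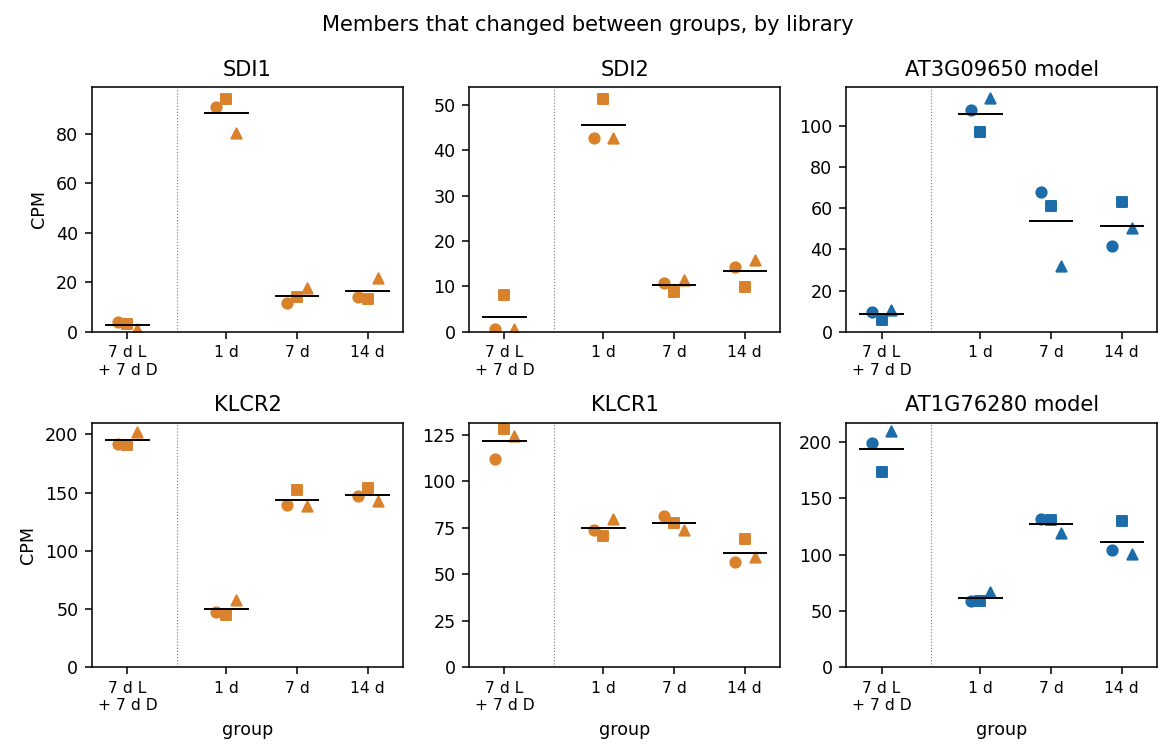
CPM of 6 members in every library (circle, square and triangle for replicates 1, 2 and 3; lines are group means; dark week left of the dotted line). SDI1, SDI2 and the AT3G09650 (HCF152) model are highest after 1 d and lowest after the dark week. KLCR2 and the AT1G76280 model are lowest after 1 d, and KLCR1 stands out after the dark week at 112 to 128 CPM.

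The kinesin light chain-related and NPG families split. NPG1, a calmodulin-binding protein needed for pollen germination, has a pair of models, of which Aa31LG1G24800 had 5.16, 5.73 and 4.45 CPM after 7 d, against 25.7, 24.9 and 26.1 CPM after 1 d. It fell by a log2 fold change of -2.29 ± 0.19, and the second model, Aa31LG10G13540, changed by -1.34 ± 0.30, a call lost with coverage trends removed (0.0793, range 0.00097 to 0.119). KLCR1 had 81.1, 77.6 and 73.8 CPM after 7 d, against 73.9, 70.7 and 79.9 CPM after 1 d, and its groups overlap. KLCR3 was not called.

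The fission factors of mitochondria and peroxisomes moved both ways. The FIS1A model Aa31LG5G11700 had 60.5, 60.9 and 74.4 CPM after 7 d, against 33.7, 40.4 and 33.4 CPM after 1 d, a change of 0.86 ± 0.14. The second FIS1A model, Aa31LG10G12020, changed by 0.55 ± 0.17, a call that ended when 1 d replicate 1 (0.0638) or replicate 3 (0.0544), or replicate 3 of 7 d (0.0627), was left out, range 0.00511 to 0.0638. FIS1B had 19.5, 23.4 and 25.4 CPM after 7 d, against 34.7, 38.2 and 31.1 CPM after 1 d, a change of -0.62 ± 0.21 whose call was lost without 1 d replicate 2 (0.0601) or 7 d replicate 1 (0.0854), range 0.00348 to 0.122. SSR1, a mitochondrial protein of root growth, had 29.9, 24.3 and 34.3 CPM after 7 d, against 53.8, 54.3 and 49.4 CPM after 1 d, a change of -0.85 ± 0.16 that kept its call throughout.

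Among 5 members on a chosen list of plastid TPR proteins only LPA1, an assembly factor of photosystem II, was called. LPA1 had 10.3, 9.70 and 4.45 CPM after 7 d, against 24.4, 18.0 and 23.3 CPM after 1 d, a change of -1.35 ± 0.26 (edgeR adjusted p = 0.00057). By recorded location, 14 tested other TPR-like members lie in the chloroplast and not the mitochondrion. Of these 5 were called lower and 1 higher. FLU, which represses chlorophyll synthesis in the dark, had 11.8, 13.7 and 14.6 CPM after 7 d, against 17.1, 15.3 and 18.8 CPM after 1 d and was not called. In the chromatin and RNA decay list NASP, a histone H3 chaperone, had 91.8, 108 and 94.8 CPM after 7 d, against 132, 127 and 124 CPM after 1 d, a change of -0.38 ± 0.10. SKI3, a cofactor of the RNA exosome, changed by -0.39 ± 0.15, a call that ended on leaving out replicate 3 of 1 d (0.0611), or replicate 1 (0.072) or 3 (0.0652) of 7 d, range 0.00607 to 0.072. Of 4 brassinosteroid signalling kinases BSK10 alone was called, with 1.48, 2.21 and 3.18 CPM after 7 d, against 5.28, 4.92 and 6.18 CPM after 1 d and a change of -1.34 ± 0.31, lost with trends removed (0.105, range 0.00101 to 0.138).

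The members among the regulators of hormone responses were not called. Of the 3 models of their list outside the rule, 2 were called lower and 0 higher. SPY, the protein O-fucosyltransferase that restrains gibberellin signalling, had 174, 159 and 115 CPM after 7 d, against 118, 118 and 117 CPM after 1 d. The 7 d libraries enclose the 1 d values, with replicate 3 the lowest (log2 fold change 0.35 ± 0.17, edgeR adjusted p = 0.0954, range over alternatives 0.00046 to 0.406). SEC, the related O-GlcNAc transferase, had 46.8, 45.9 and 24.2 CPM after 7 d, against 56.3, 48.1 and 57.7 CPM after 1 d in its model Aa31LG2G2050. ETO1, which sends ethylene-forming ACC synthases to degradation, had 22.5, 20.3 and 19.1 CPM after 7 d, against 25.7, 21.8 and 29.3 CPM after 1 d in Aa31LG5G23230 and 67.1, 59.1 and 45.2 CPM after 7 d, against 68.9, 72.4 and 79.6 CPM after 1 d in Aa31sc772G10. SRFR1, a brake on immune responses, had 97.4, 97.5 and 60.4 CPM after 7 d, against 64.1, 58.4 and 63.2 CPM after 1 d, again with a low 7 d replicate 3 (edgeR adjusted p = 0.0732, range 1.5e-05 to 0.269). The anaphase-promoting complex subunits APC7 and CDC27a were not called either.

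Per base, the members with the highest coverage were again a mixture. The 10 highest had 1.76 to 3.33 reads per base, and 6 of them are PPR-annotated. On the scale of mean CPM per kb, Aa31LG8G1600 (AT3G14330) stood at 145 after 7 d, against 63.0 after 1 d. Aa31LG1G21630 (AT5G03560) stood at 123 against 88.5, Aa31LG1G11560 (the chloroplast AT1G02150) at 133 against 87.2, and Aa31LG10G16940 (AT3G63095) at 112 against 60.3. The long description of AT3G63095 gives a lipid transfer and seed storage domain rather than a TPR. All 4 were called higher, with log2 fold changes of 1.19 ± 0.29, 0.48 ± 0.13, 0.61 ± 0.13 and 0.89 ± 0.14. The call of AT5G03560 was lost without 7 d replicate 3 (0.0507), and with trends on coverage removed its change was -0.02 (edgeR adjusted p = 0.812, range 0.00168 to 0.837); that of AT1G02150 was lost with trends removed (0.178, range 0.00028 to 0.226).

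Falling members of high coverage were the thylakoid proteins paired with AT3G53560 and AT2G37400 and the PPR-annotated models paired with AT4G36680 and AT2G15690. Aa31LG10G9570 (AT3G53560) had 50.9, 59.5 and 47.7 CPM after 7 d, against 95.3, 98.6 and 95.4 CPM after 1 d, and Aa31LG5G22810 (AT2G37400) had 64.2, 66.2 and 52.8 CPM after 7 d, against 94.1, 89.3 and 89.9 CPM after 1 d. They changed by -0.87 ± 0.12 and -0.57 ± 0.11, with tight replicates. Aa31LG8G15540 (AT4G36680) changed by -0.87 ± 0.12 and Aa31LG8G13320 (AT2G15690), a DYW-type editing protein, by -0.67 ± 0.09, and no alternative ended any of these 4 calls.

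Models that share an Arabidopsis gene may be near copies, and the sources used here do not give how reads were divided between such copies, so their values are uncertain. There are 14 such Arabidopsis genes with 32 member models. After 7 d all models fell in 3 of these genes and all rose in 1, and in 2 genes copies were called in opposite directions, chosen for naming after their values were seen. Of the AT3G14330 models, Aa31LG8G1600 rose as given above, while Aa31LG9G5900 had 20.3, 18.1 and 19.1 CPM after 7 d, against 26.7, 29.8 and 24.0 CPM after 1 d, a change of -0.48 ± 0.15 that was lost with trends removed (0.207, range 0.00313 to 0.243). AT4G28010, which is PPR-annotated, has 5 member models. Aa31LG5G21690 had 39.1, 24.7 and 20.4 CPM after 7 d, against 17.6, 20.2 and 16.2 CPM after 1 d, a change of 0.69 ± 0.21 lost without 1 d replicate 3 (0.0663) or 7 d replicate 1 (0.185), range 0.00071 to 0.185. Aa31LG5G9000 had 5.16, 8.82 and 5.72 CPM after 7 d, against 16.1, 19.7 and 16.9 CPM after 1 d, a change of -1.41 ± 0.23, and Aa31LG5G8930 changed by -0.86 ± 0.17, a call that the coverage trends with the replicate block ended (0.0654, range 0.00034 to 0.0654).

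The lowest level of any tested member after 7 d was that of Aa31LG1G14630, paired with the TPR protein AT3G51280. It had 1 count in the 3 libraries of 7 d, against 68 counts in those of 1 d, a ratio 37.1-fold lower with an exact 95% interval of 6.44 to 1487 that covers counting error only. With 5 counts after 14 d and 1 after the dark week, this model met the minimum sum only through its 1 d counts. The rule that chose it thus favoured a fall, which the interval does not cover.

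The second comparison covered the second week of light. No member was called after 14 d against 7 d, and among all tested genes 0.163% were called higher and 0.144% lower by edgeR's quasi-likelihood test. At an unadjusted p under 0.05 there were 18 of 265 members, and DESeq2 called 0. The 5 members with the smallest p were EMB2745, AT3G63095, AT5G41950, AT2G01740 and AT5G20190. EMB2745 had 291, 179.9 and 253 CPM after 14 d, against 136, 140.3 and 176 CPM after 7 d; replicate 2 is the lowest of the 14 d libraries and replicate 3 the highest of the 7 d libraries (log2 fold change 0.67 ± 0.18, edgeR adjusted p = 0.185, range 0.00019 to 0.687). AT5G41950, which the table places in the import complex of the mitochondrial outer membrane, had 94.8, 109.8 and 95.2 CPM after 14 d, against 139, 138 and 118 CPM after 7 d in Aa31LG9G240. Its 14 d libraries all lie under the 7 d ones, with replicate 2 of 14 d the highest and replicate 3 of 7 d the lowest (-0.39 ± 0.11, edgeR adjusted p = 0.207, range 0.00188 to 0.739).

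The count of calls changed without the 2 libraries that stand apart. Each had been singled out for its likeness to the other group of this same comparison. Leaving them out therefore favours differences between 7 d and 14 d, and the values below are no separate support. Without both, 18 of 266 tested members were called higher and 58 lower, while 18.1% of all tested genes were called higher and 17.4% lower, and the members' median was -0.30. By class 34 PPR-annotated members fell and 6 rose, and 24 other TPR-like members fell and 12 rose. The members fell in 21.8%, near the 20.9% of genes of similar reads per base, and rose in 6.77%, against 11.1% of those genes. EMB2745 then changed by 0.98 and AT5G41950 by -0.54, at adjusted edgeR p of 0.00019 and 0.0019. Without 14 d replicate 2 alone, 6 of 264 tested members (2.27%) were called higher and 13 (4.92%) lower, where 5.98% and 4.84% of all tested genes were.

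The third comparison asked what a dark week did at equal seed age. After the dark week 13 members were called higher and 25 lower than after 14 d of light (4.91% and 9.43%), with a median of -0.18; among all tested genes 6.05% were called higher and 7.02% lower, with a median of -0.03. Genes of similar reads per base were called higher in 6.50% and lower in 7.12%. PPR-annotated members fell in 17 and rose in 4 of 172, and other TPR-like members fell in 8 and rose in 9 of 93. Without both libraries that stand apart 14 fell and 27 rose, while 10.5% of all genes fell and 11.9% rose, and PPR-annotated members then fell in 10 and rose in 10. Single libraries moved these counts too. The members called lower numbered 9, 14 and 11 without dark replicates 1, 2 and 3, 12 and 13 without 14 d replicates 2 and 3, and 15 and 16 without 1 d replicates 1 and 2. Those called higher numbered 7 without 14 d replicate 3 and 8 without dark replicate 1 or 3. Of the 25 members that fell, 16 (64.0%) had also fallen in the first week, which is 12.0% of the 133 that fell there. Among all tested genes 49.9% of those lower after the dark week had fallen in the first week, which is 11.8% of the genes that fell there; whether the shares differ was not tested.

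**Figure D5:**
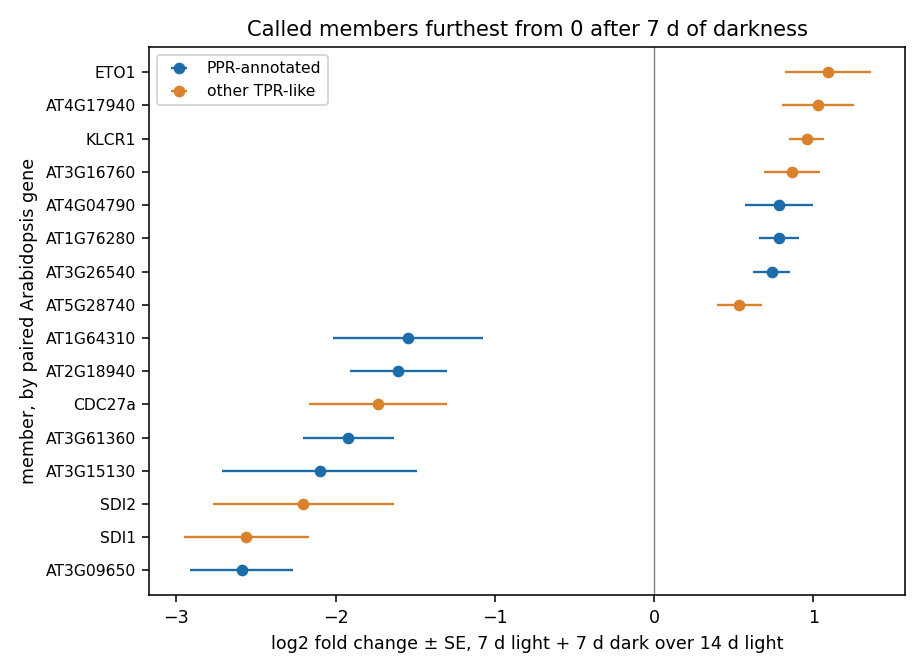
Log2 fold change ± SE, dark week over 14 d of light, for the 8 highest and 8 lowest called members with a mean of 5 CPM or more and no overlap between groups. Blue points are PPR-annotated and orange points other TPR-like members. The falls of SDI1 (-2.56) and of the AT3G09650 (HCF152) model (-2.59) are larger than any rise, of which ETO1 (1.09) is the highest.

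The largest fall among the named members was that of HCF152, a chloroplast PPR protein that processes the transcript unit of psbB, psbT, psbH, petB and petD. Its model Aa31LG3G2070 had 9.47, 5.70 and 10.5 CPM after the dark week, against 41.5, 63.1 and 50.2 CPM after 14 d. All 3 dark libraries lay under every light library, with a log2 fold change of -2.59 ± 0.32 (edgeR adjusted p = 0.00023) and of -2.39 without both libraries that stand apart. AT2G18940, a chloroplast PPR protein, had 6.09, 7.33 and 7.21 CPM after the dark week, against 15.4, 24.2 and 20.2 CPM after 14 d, a change of -1.61 ± 0.31. SLO3 (AT3G61360), a mitochondrial splicing factor, had 6.09, 4.07 and 3.33 CPM after the dark week, against 16.6, 16.0 and 18.7 CPM after 14 d, a change of -1.92 ± 0.28 (edgeR adjusted p = 0.00084). No alternative ended any of these 3 calls.

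The sulphur deficiency-induced genes fell again. SDI1 had 4.06, 3.26 and 1.11 CPM after the dark week, against 14.2, 13.1 and 21.7 CPM after 14 d, without overlap, a change of -2.56 ± 0.39 (edgeR adjusted p = 0.00107) that kept its call throughout. SDI2 had 0.676, 8.15 and 0.555 CPM after the dark week, against 14.2, 9.84 and 15.7 CPM after 14 d, with replicate 2 of the dark week close to the light libraries. Its change of -2.20 ± 0.57 (edgeR adjusted p = 0.0216) was lost without dark replicate 1 (0.0908), dark replicate 3 (0.102) or 14 d replicate 3 (0.0711), range 0.00051 to 0.102. CDC27a, the anaphase-promoting complex subunit APC3, had 1.35, 2.44 and 2.77 CPM after the dark week, against 5.92, 9.43 and 5.25 CPM after 14 d, a change of -1.73 ± 0.44 that was lost without 14 d replicate 2 (0.135) or dark replicate 1 (0.0816), range 0.0136 to 0.135. FLU had 8.12, 5.70 and 9.43 CPM after the dark week, against 15.4, 13.5 and 14.2 CPM after 14 d, a change of -0.82 ± 0.23 lost in 15 of 21 alternatives, range 0.0318 to 0.163.

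KLCR1 rose after the dark week. It had 112, 128 and 124 CPM after the dark week, against 56.9, 68.9 and 59.2 CPM after 14 d, and all dark libraries lay above all light ones. The log2 fold change was 0.96 ± 0.11 (edgeR adjusted p = 0.00014) and 1.06 without both libraries that stand apart. KLCR2 had 192, 191 and 202 CPM after the dark week, against 147, 154 and 143 CPM after 14 d, a smaller change of 0.39 ± 0.11 whose call was lost in 7 alternatives, among them those without any of the 3 dark libraries, 14 d replicate 3 or 1 d replicate 1, range 0.0115 to 0.11.

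Other risers that kept their calls were PPR-annotated or TPR proteins of little known function. The mitochondrial PPR protein paired with AT1G76280 had 199, 174 and 209 CPM after the dark week, against 104, 129.9 and 100.5 CPM after 14 d in Aa31LG4G6370, a change of 0.79 ± 0.12. AT3G26540, also PPR-annotated, had 74.4, 75.8 and 78.2 CPM after the dark week, against 46.2, 44.7 and 46.5 CPM after 14 d in Aa31LG2G6000, a change of 0.74 ± 0.12. The TPR proteins paired with AT4G17940 and AT3G16760 changed by 1.03 ± 0.22 and 0.87 ± 0.18. That the dark and 14 d libraries do not overlap was a condition for naming these 4.

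Risers that lost their call under some alternatives included ETO1 and an RNA-processing protein. The ETO1 model Aa31LG5G23230 had 35.2, 26.9 and 45.5 CPM after the dark week, against 10.7, 23.4 and 12.0 CPM after 14 d, a change of 1.09 ± 0.27 (edgeR adjusted p = 0.0179) lost without 14 d replicate 3 (0.0726) or dark replicate 3 (0.0884), range 0.00069 to 0.0884. The second ETO1 model, Aa31sc772G10, had 38.5, 44.0 and 54.4 CPM after the dark week, against 26.1, 63.1 and 39.0 CPM after 14 d, and its groups overlap. AT5G28740, which the table annotates to RNA processing, had 412, 504 and 399.6 CPM after the dark week, against 358, 269 and 284 CPM after 14 d in Aa31LG11G8590, a change of 0.53 ± 0.14 lost without 1 of 5 libraries in turn (1 d replicate 3, 14 d replicates 2 and 3, dark replicates 1 and 2), range 0.00239 to 0.0993. SPY had 118, 93.7 and 126 CPM after the dark week, against 133, 176 and 114 CPM after 14 d and was not called. Among the 20 named members called in this comparison, 10 lost their call under at least 1 alternative. The AT3G14330 model Aa31LG9G5900, which kept its call, had 10.1, 9.78 and 11.7 CPM after the dark week, against 27.2, 17.6 and 23.2 CPM after 14 d, a change of -1.01 ± 0.22.

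The 3 remaining comparisons share libraries with the first 3, so they are given only as values. After 14 d against 1 d 36 members were called higher and 138 lower, where 31.8% and 31.6% of all tested genes were; PPR-annotated members fell in 107 and rose in 19. The OTP82 model Aa31LG4G13790 had 1.18, 4.51 and 0 CPM after 14 d, against 21.4, 22.1 and 26.3 CPM after 1 d, a change of -3.16 ± 0.39, and EMB2745 had 291, 179.9 and 253 CPM after 14 d, against 53.3, 56.5 and 51.5 CPM after 1 d, a change of 2.15 ± 0.19.

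After the dark week against 1 d 46 members were called higher and 153 lower, where 33.2% and 35.5% of all tested genes were. PPR-annotated members fell in 116 and rose in 19, with a median of -1.42, and other TPR-like members fell in 37 and rose in 27, with a median of -0.10. SDI1 had 4.06, 3.26 and 1.11 CPM after the dark week, against 91.0, 94.2 and 80.3 CPM after 1 d, a change of -5.02 ± 0.28 (edgeR adjusted p = 2.4e-08). SDI2 changed by -4.06 ± 0.41, KLCR2 by 1.96 ± 0.11 and the AT1G76280 model by 1.66 ± 0.12. EMB2758, an embryo-essential mitochondrial PPR protein, had 2.71, 4.07 and 2.22 CPM after the dark week, against 37.0, 38.0 and 41.4 CPM after 1 d, a change of -3.72 ± 0.36. A pair of members had 0 counts after the dark week: Aa31LG5G1740, a DnaJ protein with TPR, against 100 counts after 1 d, which is at least 12.5-fold lower, and Aa31LG10G6420, PPR-annotated, against 67 counts, at least 8.38-fold lower (bounds against 3 counts over the group). After 7 d and 14 d Aa31LG5G1740 had 9 and 3 counts and Aa31LG10G6420 had 4 and 5. Both met the minimum sum only through their 1 d counts, so the rule favoured a fall in each.

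After the dark week against 7 d of light 19 members were called higher and 29 lower, where 8.42% and 9.99% of all tested genes were. Without both libraries that stand apart it was 30 and 70, where 19.7% and 19.3% of all genes were. Without 7 d replicate 1 or 2, or dark replicate 1 or 2, it was 7 to 9 higher and 13 to 16 lower. HCF152 had 9.47, 5.70 and 10.5 CPM after the dark week, against 67.9, 61.3 and 31.8 CPM after 7 d, a change of -2.63 ± 0.31, and 7 d replicate 3 is again the lowest of its group. EMB2758 changed by -2.73 ± 0.42, SDI1 by -2.37 ± 0.38 and AT4G17940 by 1.19 ± 0.21.

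Markers of seed tissue differed between some of these groups. Of the list of storage and maturation genes (cruciferin, albumins, oleosins and EM proteins), 10 of 10 models were higher after 7 d than after 1 d. Of all tested genes 30.7% were called higher there. Their summed level was 2413 to 3836 CPM after 7 d, against 1284 to 1511 CPM after 1 d. After the dark week it was 3611 to 4967 CPM, against 2716 to 6404 CPM after 14 d, and none was called between these groups. Of 3 endosperm-list models ZOU had no count, and the sum, that of a pair of NCED6 models, was 85.9 to 108 CPM after 7 d, against 21.4 to 23.3 CPM after 1 d. It was 98.6 to 127 CPM after the dark week, against 65.2 to 82.0 CPM after 14 d, and the tested NCED6 model was called higher. Their part in the members' changes was not tested.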

How the data were processed

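The deposited table holds, for 12 libraries, raw counts per gene model, RPKM values and gene length, per the file headers, together with the paired Arabidopsis gene and its descriptions. The submitters' processing notes name bcl2fastq 2.17.1, Trimmomatic, Bowtie2 2.3.5.1, HTSeq 0.11.2 and TAIR10. The sources used here do not state how reads of near-identical models were divided or whether strand was used. The RPKM values made by the authors were not used for any test. Gene length, per the file headers in bp, served for reads per base and CPM per kb.

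The deposited counts of all 12 libraries were fitted together in edgeR 4.0.16 (R 4.3.3, limma 3.58.1) with TMM scaling, filterByExpr and the quasi-likelihood test, after testing on simulated data. Untested models held 0.379% of the counts. P-values were adjusted by Benjamini-Hochberg over all 15301 tested genes in each of 6 comparisons, and calls were made under 0.05. CPM were computed from the scaled library sizes. Members were set beside genes between the 10th and 90th percentile of their reads per base.

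Named members were, among those called, the 8 with the highest and the 8 with the lowest fold change that had a mean of 5 CPM or more and no overlap between groups, or the 5 smallest p where fewer than 5 were called. Where a member was named for its fold change, its lack of overlap was fixed by this choice. Members of the gene lists, the 10 with the highest reads per base and the 3 on either side of the minimum sum were named too. Copies of AT3G14330 and AT4G28010, and members with at most 3 counts in a group, were chosen after their values were seen. The members and lists were chosen with earlier results of these data known, so the lists support nothing independently. Alternatives were DESeq2 1.42.0, RLE and total-count scaling, no low-count filter, each library left out, a replicate block, only the 6 libraries compared, per-library trends on length and reads per base removed with and without the block, members without PPR annotation, and a minimum sum of 200. Leaving out both libraries that stand apart was chosen after seeing the data.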

Additional observations from a re-analysis of the deposited data

How the results depend on the processing

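Every printed fold change of a single gene except 1 kept its direction under every alternative run. Of the single-gene values under alternatives 1854 stayed on their side of the threshold, 131 lost a call, 22 gained one and 2 reversed. The exception was Aa31LG1G21630 after 7 d against 1 d, at -0.0220 with trends on length and reads per base removed and -0.0215 with the replicate block added. Shallow libraries (from 916523 counts) limit what can be called among members of few counts.

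The labels do not say whether a shared replicate number marks a shared batch. Same-numbered libraries correlated at -0.468 to 0.475 after group means were removed, with 4 of 18 pairs over 0.1. These values cannot decide it, since both extremes involve a library that stands apart (14 d replicate 2 and 7 d replicate 3). With the replicate block, the dark week against 14 d gave 8 higher and 13 lower members, and the percent called lower minus that of genes of similar reads per base was -0.678. The dark week against 7 d gave 10 higher with the block. Total-count scaling moved the median of all genes to -0.109 at 7 d and -0.165 at 14 d against 1 d, and to -0.240 and -0.101 for the dark week against 1 d and 7 d. In what follows the cause was not tested.

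After 7 d against 1 d (39 higher, 133 lower, median -0.51), members without PPR annotation gave 17 and 28, a median of -0.0534 and a difference to similar genes of -2.32 percentage points. Here and below, similar genes are those in the band set by all members. Weighted to the coverage of the other TPR-like members, 30.1% of genes outside the set fell, against 30.1% of these members. The members' median was -0.644 with total counts, -0.306 with trends removed, -0.324 with trends removed and the block, and -0.347 at a sum of 200 or more. After 14 d against 7 d, leaving out both libraries that stand apart, a choice that favours differences here, gave 18 and 58 and a median of -0.297.

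For the dark week against 14 d (13 higher, 25 lower), only the 6 libraries compared gave 5 and 6 with a median of -0.0476, leaving out both libraries that stand apart gave 27 and 14, -0.0176 and a difference of -3.09 points, trends removed with the block gave 16 lower, and members without PPR annotation gave 9 and 8 with -0.0174. For the dark week against 7 d (19 and 29), trends removed gave 29 higher, both libraries left out gave 30 and 70 and a difference of 4.78 points, and members without PPR annotation gave 8 lower and a median of 0.0222.

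After 14 d against 1 d, members without PPR annotation gave 17 and 31, a median of -0.151 and a difference of -1.78 points. Medians there were -0.743 with total counts and without both libraries, -0.290 and -0.293 with trends removed without and with the block, and -0.446 at a sum of 200 or more. For the dark week against 1 d, members without PPR annotation gave 27 and 37, -0.103 and 1.23 points, and the medians were -0.956 with total counts, -0.527 and -0.531 with trends removed without and with the block, and -0.582 at a sum of 200 or more.

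With each library left out in turn, 14 d against 7 d gave 0 to 6 higher and 0 to 13 lower with medians of -0.205 to 0.0371, the high counts being those without 14 d replicate 2. The dark week against 14 d gave 7 to 15 higher, 9 to 26 lower, medians of -0.223 to -0.0236 and differences of -1.66 to 1.85 points, and against 7 d 7 to 22 higher and 13 to 42 lower. The median of 14 d against 1 d ran from -0.738 to -0.532. For the other TPR-like members after 7 d against 1 d the median ran from -0.173 to 0.000729.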

Other observations

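Recorded locations gave a further view of the members. Of 22 tested mitochondrial members 13 fell and 5 rose after 7 d against 1 d, and of 34 tested chloroplast members 15 fell and 5 rose, where 29.7% of all tested genes fell and 30.7% rose. After the dark week against 14 d of light 7 chloroplast members fell and 1 rose, and 3 mitochondrial members fell and 2 rose, where 7.02% of all tested genes fell and 6.05% rose. Partners of the anaphase-promoting complex outside the rule, its other subunits and activators, were called higher in 3 and lower in 2 of 9 after 7 d, beside the same 30.7% and 29.7% of all tested genes. The complex's TPR subunits outside the rule were called lower in 2 of 3.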
